A study of Mus musculus with 59 samples.

Results

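The Olig1 and Olig2 locus was described here as one window of mouse chromosome 16, chr16:91150000-91290000 of build mm9, counted from 1. Every deposited interval that touched the window was a member. There were 338 members of 1107554 intervals in 36 lists. They comprised 60 of 408766 H3K27me3 islands, 237 of 539823 H3K27ac peaks and 41 of 158965 H3K4me3 peaks. The window had been selected on its measured H3K27me3 islands, which differed between the tumour genotypes. That contrast is therefore described with no test, and tests were run only on the other marks and on the neurospheres.

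Olig1 and Olig2 are neighbouring genes for basic helix-loop-helix transcription factors. Olig2 specifies motor neurons and the oligodendrocyte lineage in the embryonic neural tube and stays on in oligodendrocyte precursors, while Olig1 acts mainly in oligodendrocyte maturation. Both are expressed in diffuse gliomas. H3K27me3, laid down by Polycomb repressive complex 2, marks silent chromatin in broad domains. H3K27ac marks active promoters and enhancers and sits on the same lysine, so the same histone tail cannot carry both, and H3K4me3 marks promoters. The K27M change of histone H3.3 replaces that lysine with methionine and inhibits the methyltransferase of the complex.

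The tumours arose in the brainstem of mice that carried Nestin-creERT2, LSL-PDGFRαV544ins and Trp53flox/flox, with either H3f3aLSL-K27M-Tag/+ (K27M) or H3f3aLSL-WT-Tag/+ (WT). All tumours therefore shared the mutant PDGF receptor and the floxed Trp53 alleles, and WT tumours carried the tagged normal histone. The Cre recombinase was an inducible form under Nestin, a gene of neural stem cells, so recombination was directed to that compartment. H3K27me3 and H3K27ac were profiled in 6 K27M tumours (numbered 1 to 6) and 5 WT tumours (7 to 11), and H3K4me3 in K27M tumours 2 and 6 and WT tumours 7, 9 and 10. The K27M tumours came from 4 males and 2 females and the WT tumours from 1 male and 4 females. Neurospheres, floating cultures of neural precursors, were grown from the brain at e15.5 and carried Nestin-cre with 1 of the same histone alleles, without the receptor or Trp53 alleles. H3K27me3 was profiled in 3 K27M and 3 WT hindbrain libraries and in 3 K27M forebrain libraries. The labels do not say that each library came from a separate animal, and each p-value then reflects only how these libraries spread.

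The lists gave islands and peaks, not coverage, and no level is known where nothing was called. An island is a stretch of 200 bp windows enriched in H3K27me3, joined over gaps of up to 600 bp, with a read count per island. The H3K27me3 lists held 3208588 to 16323822 reads in islands per library. There were 36284 to 61251 peaks per H3K27ac list and 28480 to 34291 per H3K4me3 list. Genes were not placed on mm9 positions because no annotation of that build was used here. On another build, GRCm38.p6, RefSeq lists the protein-coding genes around the pair in the order Paxbp1, 4932438H23Rik, Olig2, Olig1, Ifnar2 and Il10rb. The region is thus named by the pair it was chosen for, and no peak is assigned to either gene. The sources used here give no total depth of sequencing.

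The Olig2 promoter is shown because CG-rich promoters are typical targets of Polycomb repressive complex 2. RefSeq's GRCm38.p6 entry spans chr16:91225300-91225599 on the plus strand, 250 bases before the start of the gene and 50 from it. These positions are of another build than the islands and cannot be compared with them. CG dinucleotides, which read the same on both strands, are in capitals.
Olig2: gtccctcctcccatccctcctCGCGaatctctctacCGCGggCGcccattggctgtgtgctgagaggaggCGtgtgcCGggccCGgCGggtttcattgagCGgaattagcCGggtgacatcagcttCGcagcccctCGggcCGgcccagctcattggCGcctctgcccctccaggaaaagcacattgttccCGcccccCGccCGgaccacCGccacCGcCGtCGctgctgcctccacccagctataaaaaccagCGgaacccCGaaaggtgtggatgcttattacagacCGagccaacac
The sequence held 25 CG dinucleotides and was 65% G or C. Of 32851 RefSeq mouse promoters of this length, 18.4% held at least as many CG dinucleotides, and the median was 7.

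H3K27me3 covered most of the locus in every K27M tumour and a small part of it in every WT tumour. Islands covered 84.6 kb of the 140 kb window in K27M tumour 1, 130.4 kb in tumour 2, 103.2 kb in tumour 3, 107.0 kb in tumour 4, 95.8 kb in tumour 5 and 117.6 kb in tumour 6. They covered 22.0 kb in WT tumour 7, 3.4 kb in tumour 8, 25.8 kb in tumour 9, 44.0 kb in tumour 10 and 31.0 kb in tumour 11. The genotypes did not overlap, and the lowest K27M tumour lay well above WT tumour 10, the highest of its group. The means were 106 kb ± 16.1 (SD, n = 6) and 25.2 kb ± 14.8 (SD, n = 5), a ratio of 4.22 that describes the choice of the window. Of 12049 autosomal tiles of the window's length with an island in some tumour, 0.764% had every K27M tumour above every WT tumour in covered length, and 0.473% had the reverse.

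**Figure D1:**
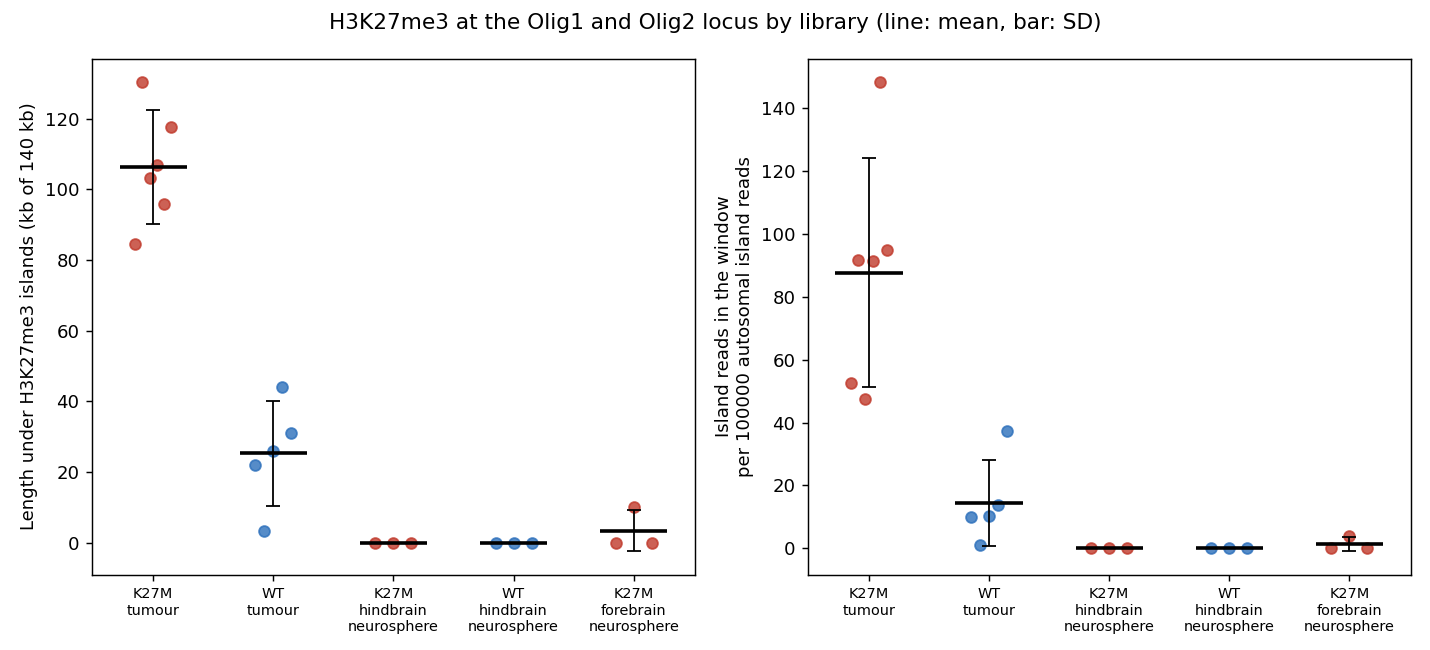
The left plot gives the length of the window under H3K27me3 islands in kb and the right plot the island reads of the window per 100000 autosomal island reads, for each of the 20 libraries in 5 groups (points: libraries, line: mean, bar: SD). All 6 K27M tumours lie above all 5 WT tumours in both plots, and 8 of the 9 neurosphere libraries lie at 0.

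Island reads at the locus separated the genotypes too. Per 100000 reads in autosomal islands, the window held 52.5 in K27M tumour 1, 91.6 in tumour 2, 47.4 in tumour 3, 91.4 in tumour 4, 148 in tumour 5 and 94.7 in tumour 6. It held 9.90 in WT tumour 7, 1.07 in tumour 8, 10.2 in tumour 9, 13.7 in tumour 10 and 37.3 in tumour 11. K27M tumour 3 was the lowest of its group and still lay above WT tumour 11, the highest of the other. The means were 87.7 ± 36.4 (SD, n = 6) and 14.4 ± 13.6 (SD, n = 5), a ratio of 6.07. Of the same 12049 tiles, 2.90% had every K27M tumour above every WT tumour in this share and 1.98% had the reverse. Its denominator, the autosomal island reads, came from 67.1 to 230.9 Mb of islands in K27M tumours and 77.6 to 302 Mb in WT tumours, and the part of that length in the share was not tested. The highest share of each genotype, in K27M tumour 5 and WT tumour 11, was in the tumour with the least autosomal island length of its genotype. Both are female, and in K27M tumour 5 only 2346983 of 4905241 island reads were autosomal. Per 100000 island reads of all chromosomes, K27M tumour 5 held 71.0, below K27M tumours 2 (91.2) and 4 (90.9). WT tumour 11 held 21.8 by that measure and stayed the highest WT tumour. Without WT tumour 11, the WT mean share of autosomal island reads was 8.74 and the ratio 10.0.

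The number of reads in islands differed between tumours, and its part in the covered length was not tested. K27M tumours had 4905241 to 14433881 reads in islands and WT tumours 3208588 to 16323822. Sex differed in balance between the genotypes. Among females, K27M tumours 5 and 6 had 95.8 and 117.6 kb covered, and WT tumours 7, 8, 10 and 11 had 3.4 to 44.0 kb. The only WT male, tumour 9, had 25.8 kb, against 84.6 to 130.4 kb in the 4 K27M males. In these bulk tumours, a larger share of cells with the mark and more of the mark per cell cannot be told apart.

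Within islands, the density of reads differed less than their extent. At the locus, islands held 36.3 to 75.5 reads per kb in K27M tumours and 15.0 to 44.9 reads per kb in WT tumours. Relative to all autosomal islands of the same library, locus islands were 0.983 to 1.62 times as dense in K27M tumours and 0.513 to 0.943 times as dense in WT tumours. The ratio was above 1 in 5 of 6 K27M tumours, farthest in tumour 2, and below 1 in K27M tumour 6 and in all 5 WT tumours, where tumours 10 and 11 came nearest at 0.943 and 0.934. The island with most reads ranked between 132 and 464 in its K27M list and between 1840 and 23965 in its WT list, out of 13936 to 42879 islands per list. The rank of 1840 belongs to an island of WT tumour 10 with only 1.2 of its 31.0 kb in the window, and the best island wholly inside the window in that tumour ranked 2557. In K27M tumour 2, a single island of 92.4 kb with 6063 reads covered most of the first part of the window.

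The widest H3K4me3 and H3K27ac regions of the locus lay in 2 blocks, and these blocks anchor the description that follows. A further H3K27ac region of 4.65 kb, described below, lay before them. H3K4me3 peaks merged over the 5 tumours formed 9 regions, of which 4 were called in all 5 tumours, as were 48.3% of 40273 autosomal merged regions. The widest, chr16:91221239-91230804, spanned 9.57 kb and was the 28th widest of the 40273 regions. It is called the first broad region below. The second, chr16:91268521-91272830, spanned 4.31 kb and ranked 1052 by width. The other shared regions were chr16:91169785-91170727 and chr16:91231844-91233838, which spanned 0.943 and 1.99 kb.

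**Figure D2:**
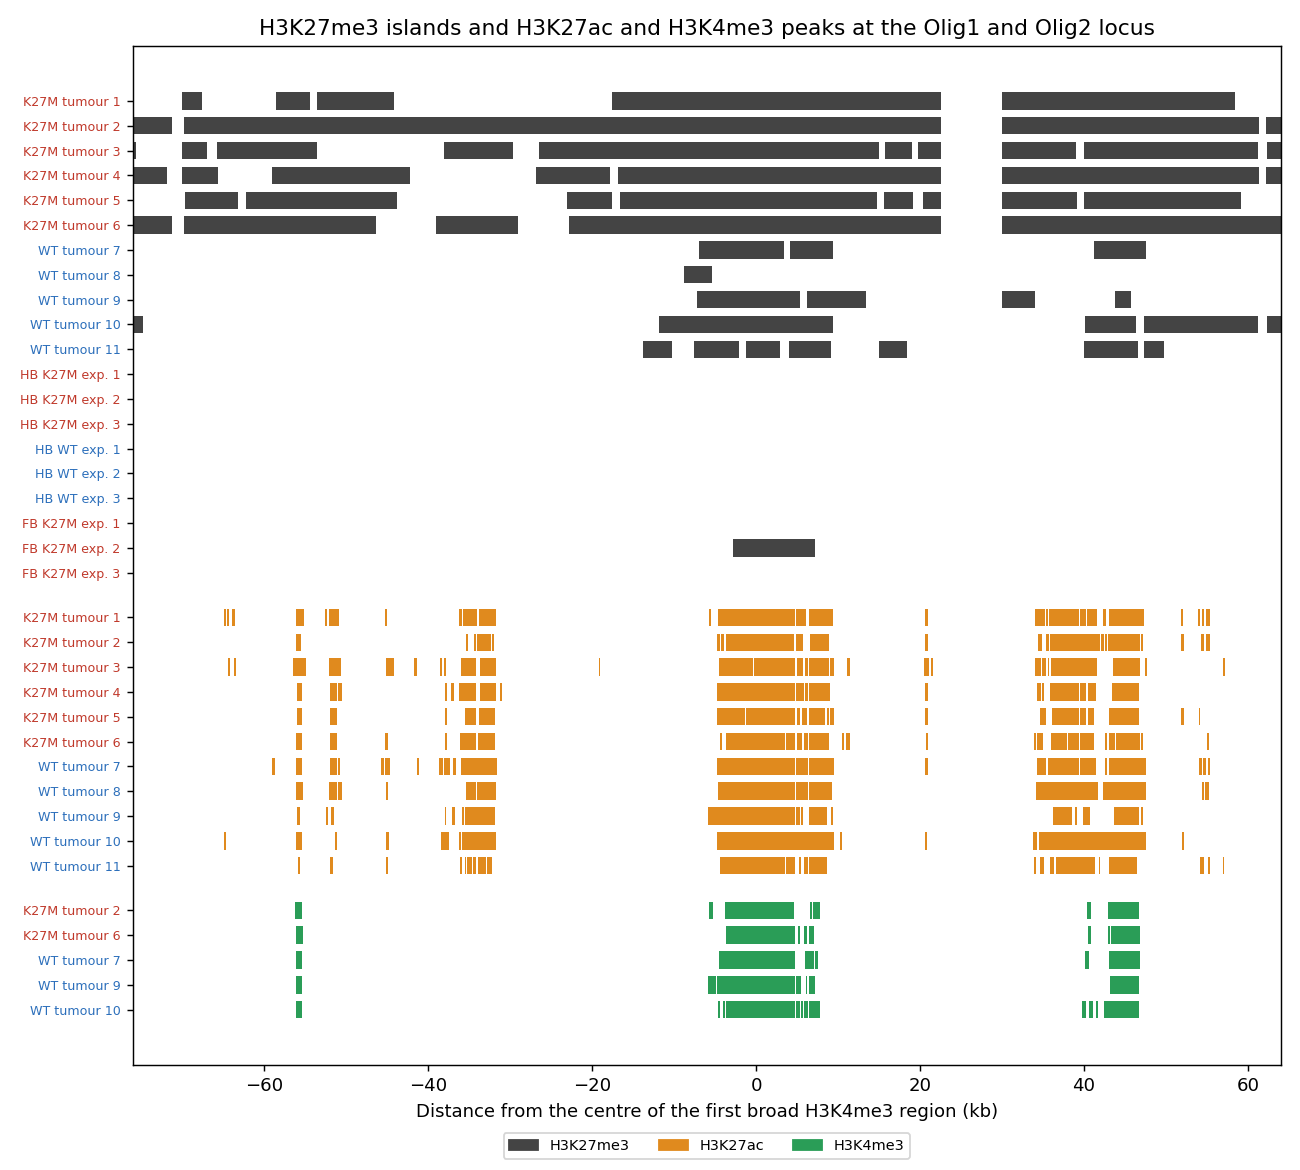
Each row is 1 library and each bar an H3K27me3 island (grey), an H3K27ac peak (orange) or an H3K4me3 peak (green), against the distance in kb from the centre of the first broad H3K4me3 region (HB: hindbrain and FB: forebrain neurospheres, red names: K27M, blue names: WT). Islands extend over most of the window in the 6 K27M tumours and stay near the 2 blocks of peaks in the WT tumours, while the peaks lie at like positions in both genotypes.

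H3K27me3 was called across both broad H3K4me3 regions in every K27M tumour. Islands covered 100% of the first and of the second broad region in each of the 6. In WT tumours they covered 91.6%, 0%, 100%, 100% and 81.2% of the first broad region and 100%, 0%, 46.4%, 90.0% and 94.7% of the second, for tumours 7 to 11. The genotypes thus overlapped over the broad regions themselves, and tumour 8 alone among the WT tumours had no island on either. Its single island of the locus, with 51 reads over 3.4 kb, lay just before the first broad region.

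Outside the broad regions, the genotypes separated in every segment with islands except the one after the second broad region. The segments were cut at peaks and islands of these same data. How often like segments elsewhere separate the genotypes was not counted. The 71.2 kb before the first broad region were covered to 40.5% to 98.0% in K27M tumours (median 64.6%) and to 3.14% to 11.6% in WT tumours. The 12.5 kb before the second broad region were covered to 92.0% to 100% in K27M tumours and to 0% to 31.9% in WT tumours. The 17.2 kb after the second broad region overlapped between the genotypes, at 67.4% to 100% against 0% to 89.7%, through WT tumour 10. The other WT tumours lay at 0% to 14.0% there.

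**Figure D3:**
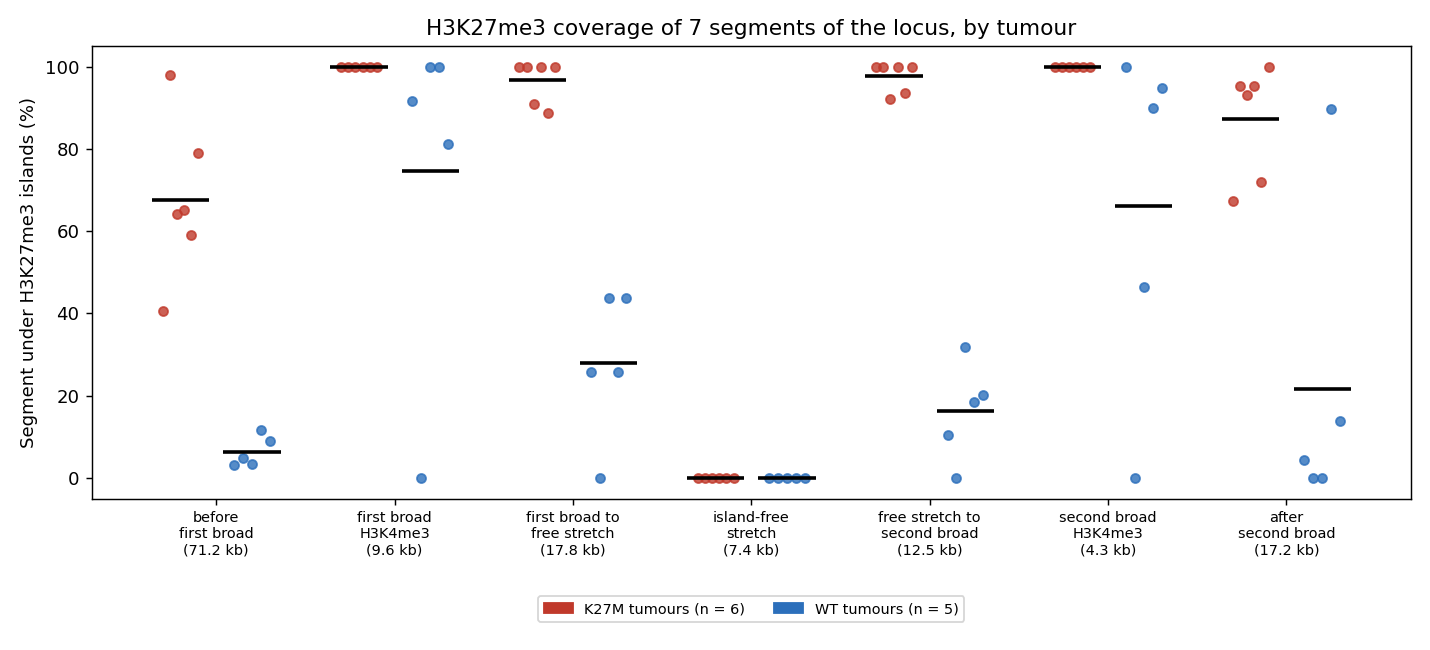
The percentage of each of 7 successive segments of the locus under H3K27me3 islands, by tumour (points: tumours, line: group mean; segment lengths in kb under each name). K27M tumours (red) and WT tumours (blue) overlap on the 2 broad H3K4me3 regions and after the second of them, and do not overlap in the 3 other segments that hold islands.

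The reach of the islands that overlap a broad region was measured in kb up to their first break. From the first broad region, the overlapping islands of K27M tumours ran 11.8 to 65.0 kb to the left and 10.0 to 17.8 kb to the right. In the 4 WT tumours with an island there, they ran 2.24 to 7.04 kb to the left and 0.596 to 4.596 kb to the right. At the second broad region, islands of K27M tumours ended 11.6 to 18.6 kb beyond its right edge. In the 4 WT tumours that reach was -1.03 to 0.770 kb, a negative value lying inside the region. In WT tumour 10 the island ended 0.43 kb inside the region, and a further island of 13.8 kb began after a short break, which covers most of the segment after the region but does not enter its reach. On the left of the second broad region the reach overlapped, at 2.52 to 12.5 kb in K27M tumours and -1.28 to 2.52 kb in WT tumours, because K27M tumours 3 and 5 each had a break between islands 2.52 kb from the region.

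At the locus, island edges lay closer to peaks in WT tumours than in K27M tumours. Only peaks that touched the window entered the distances, so an edge near its border may have a nearer peak outside. Of 70 island edges inside the window in K27M tumours, 5 (7.14%) fell inside an H3K27ac peak of the same tumour, and the median distance to the nearest H3K27ac peak was 4.23 kb. Of 38 edges in WT tumours, 15 (39.5%) fell inside such a peak, and the median distance was 0.421 kb. Over all autosomal islands, 2.10% of K27M edges and 1.49% of WT edges fell inside an H3K27ac peak. The window is denser in peaks: H3K27ac peaks covered 20.1% to 24.8% of it in K27M tumours and 18.5% to 25.9% in WT tumours. The K27M share of edges thus lay below the local peak coverage and the WT share above it. For H3K4me3, 0 of 14 edges in K27M tumours 2 and 6 fell inside a peak, at a median distance of 14.9 kb, and 8 of 22 edges (36.4%) did in WT tumours 7, 9 and 10, at a median of 1.05 kb. Over all autosomal islands of these tumours, 2.33% of K27M edges and 2.28% of WT edges fell inside an H3K4me3 peak. H3K4me3 peaks covered 10.5% to 10.8% of the window in the K27M tumours and 11.1% to 12.4% in the WT tumours. Edges of 1 tumour are not independent, and these counts come from the contrast that chose the window, so no test was made.

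A 7.4 kb stretch between the 2 blocks, chr16:91248601-91256000, held no island in any of the 20 libraries and no peak in any of the 16 peak lists. All 6 K27M tumours had an island that ended at base 91248600 and an island that began at base 91256001, and WT tumour 9 also had one that began there. Among autosomal islands, 0.00833% of 119987 distinct ends and 0.0158% of 120425 distinct starts were shared by all 6 K27M tumours. No island end or start at the locus was shared by all 5 WT tumours, as were 0.00699% of autosomal ends and 0.0131% of autosomal starts. A second stretch, chr16:91154801-91156000, was also free of islands and peaks in all lists. Input libraries and the mappability of these bases were not analysed here, so their part in the shared edges was not tested.

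The islands on either side of the 7.4 kb stretch were compared within each tumour. Read density before and after it was 52.9 and 46.2 reads per kb in K27M tumour 1, 64.6 and 68.8 in tumour 2, 37.8 and 36.4 in tumour 3, 46.2 and 43.4 in tumour 4, 35.7 and 37.9 in tumour 5, and 76.0 and 74.3 in tumour 6. It was 25.8 and 19.5 reads per kb in WT tumour 7, 25.2 and 26.7 in tumour 9, 49.5 and 40.3 in tumour 10, and 22.8 and 22.2 in tumour 11. The side with the higher density was the first in 4 of 6 K27M tumours and in 3 of these 4 WT tumours. The part before the stretch held 69.1% to 73.3% of the locus reads in the 6 K27M tumours. In the 4 WT tumours with islands on both sides it held 56.0% to 76.3%.

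H3K27ac did not separate the genotypes at the locus. Peaks covered 34.7 kb of the window in K27M tumour 1, 28.7 kb in tumour 2, 34.7 kb in tumour 3, 30.0 kb in tumour 4, 28.1 kb in tumour 5 and 29.8 kb in tumour 6. They covered 36.3 kb in WT tumour 7, 33.2 kb in tumour 8, 25.9 kb in tumour 9, 35.6 kb in tumour 10 and 26.3 kb in tumour 11. The WT tumours held both the highest and the lowest value, so the K27M range lay inside theirs. The means were 31.0 kb ± 2.95 (SD, n = 6) and 31.5 kb ± 5.02 (SD, n = 5). The difference, K27M minus WT, was -0.455 kb with a standard error of 2.55 kb, and a two-sided exact permutation test gave p = 0.853 (1 after Benjamini-Hochberg adjustment over 5 comparisons at the locus), where the smallest p the design allows is 0.00216. Over 12016 autosomal tiles of the same length, 0.499% had no overlap between the genotypes in H3K27ac, in either direction. The test does not show that the genotypes were alike, and its sign changed when some single tumours were left out.

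The locus was among the most H3K27ac-covered stretches of the genome in every tumour. Among 17649 autosomal tiles of this length, counting the window, it ranked between 19 and 54 in K27M tumours and between 22 and 56 in WT tumours. For H3K4me3 it ranked between 132 and 193 in the 5 tumours. For H3K27me3 it ranked between 41 and 321 in K27M tumours and between 660 and 6335 in WT tumours. High rank for both H3K27ac and H3K27me3 thus occurred together in K27M tumours.

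H3K27ac peaks merged over the 11 tumours formed 25 regions at the locus, of which 5 (20%) were called in all 11, beside 15.0% of 97498 autosomal merged regions. The widest, chr16:91220170-91235583, spanned 15.4 kb around the first broad H3K4me3 region and was the 26th widest of all. It was covered by peaks over 12.3 to 13.7 kb in K27M tumours and 11.99 to 14.3 kb in WT tumours. The region chr16:91268033-91273691, of 5.66 kb, contained the second broad H3K4me3 region, and chr16:91259836-91268027, of 8.19 kb, lay just before it. The first of these was covered over 3.34 to 4.72 kb in K27M tumours and 3.32 to 5.61 kb in WT tumours, and the other over 5.48 to 7.09 kb and 3.43 to 7.84 kb. In all 3 regions the WT range enclosed the K27M range.

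Of the other shared H3K27ac regions, chr16:91189733-91194381 spanned 4.65 kb with no H3K4me3 peak in the 5 tumours profiled. Peaks covered 2.43 to 4.13 kb of it in K27M tumours and 3.10 to 4.46 kb in WT tumours. Islands reached it in 3 of 6 K27M tumours and in 0 of 5 WT tumours, so the other K27M tumours, as the map shows, had their islands broken there. The last, chr16:91169559-91171061, spanned 1.50 kb with an H3K4me3 peak, and it touched an island in 6 of 6 K27M tumours and 0 of 5 WT tumours. A narrow region, chr16:91246456-91247126, was called in 6 of 6 K27M tumours and 2 of 5 WT tumours, and 0.345% of the 97498 autosomal merged regions were called in all 6 K27M tumours and in 2 or fewer WT tumours. No H3K27ac region of the locus was called in every tumour of one genotype and in none of the other, as 0.0308% of the autosomal merged regions were.

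Peak strength, as the highest fold enrichment the authors deposited for an H3K27ac peak of the locus, was 15.8 to 29.6 in K27M tumours and 24.9 to 45.9 in WT tumours. The ranges overlapped, and fold enrichments of separate lists are not on a common scale. By deposited q-value, the top H3K27ac peak of the locus ranked between 44 and 1397 in its own list in K27M tumours and between 90 and 1456 in WT tumours. The top peak by q-value was not always the one with the highest fold enrichment. The locus thus held a peak near the top of each list in both genotypes.

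H3K4me3 covered 15.1 and 14.7 kb of the locus in K27M tumours 2 and 6 and 15.6, 16.2 and 17.4 kb in WT tumours 7, 9 and 10. Both K27M values lay below the 3 WT values. The means were 14.9 kb ± 0.293 (SD, n = 2) and 16.4 kb ± 0.917 (SD, n = 3), a difference of -1.46 kb with a standard error of 0.568 kb. A two-sided exact permutation test gave p = 0.2 (1 after adjustment over the 5 comparisons), and 2 against 3 tumours cannot go below 0.1. Of 11153 autosomal tiles of this length, 20.6% had no overlap between the genotypes in either direction, and 5.11% had both K27M tumours below all 3 WT tumours, as here.

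**Figure D4:**
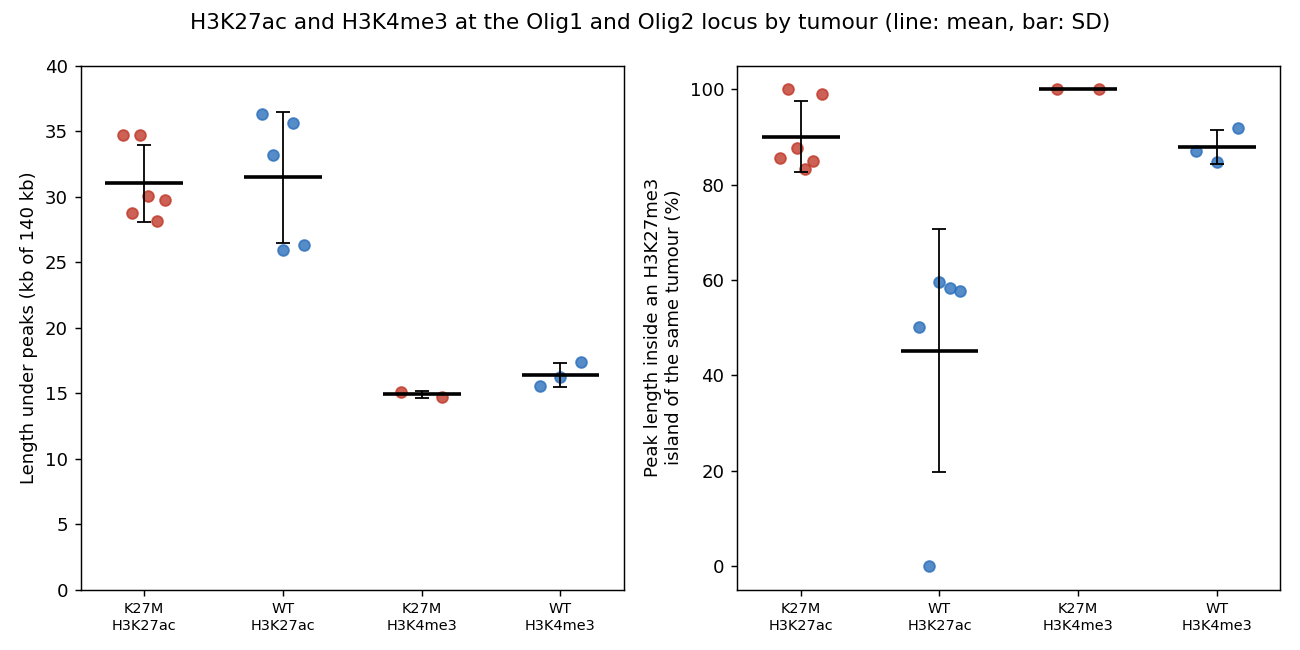
The left plot gives the length of the window under H3K27ac and H3K4me3 peaks in kb, and the right plot the percentage of that length inside an H3K27me3 island of the same tumour (points: tumours, line: mean, bar: SD). The H3K27ac lengths of the genotypes overlap, and the share inside islands is at least 83.2% in K27M tumours and at most 59.6% in WT tumours.

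Peaks and islands coincided over most of the peak length in K27M tumours. Of the H3K27ac length at the locus, 85.5% lay inside an H3K27me3 island of the same tumour in K27M tumour 1, 100% in tumour 2, 87.7% in tumour 3, 83.2% in tumour 4, 85.1% in tumour 5 and 99.0% in tumour 6. It was 50.1% in WT tumour 7, 0% in tumour 8, 59.6% in tumour 9, 58.2% in tumour 10 and 57.8% in tumour 11. The genotypes did not overlap, with WT tumour 8 far below the rest. Islands covered 60.4% to 93.1% of the window as a whole in K27M tumours and 2.43% to 31.4% in WT tumours. The part of this coverage in the shares of peak length, and in their difference between the genotypes, was not tested. How many other autosomal stretches of this length separate the genotypes in this measure was not counted. Over the autosomes, 7.88% to 22.2% of the H3K27ac length lay inside islands in K27M tumours and 2.16% to 10.0% in WT tumours. Since both shares contain the islands that chose the window, no test was made.

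For H3K4me3, 100% of the peak length lay inside islands in K27M tumours 2 and 6, and 87.0%, 84.8% and 91.9% in WT tumours 7, 9 and 10. The autosomal shares were 17.2% to 26.3% in the 5 tumours. Seen from the islands, H3K27ac peaks took up 22.0% to 35.1% of the island length in K27M tumours and 0% to 82.6% in WT tumours. Island length outside H3K27ac peaks was 54.9 to 102 kb in K27M tumours and 3.40 to 23.3 kb in WT tumours. Island length under H3K27ac peaks averaged 27.9 kb in K27M tumours and 13.9 kb in WT tumours, so most of the additional island length in K27M tumours lay where no H3K27ac peak was called. Most of the window itself also lay outside such peaks, which covered 22.2% of it on average in K27M tumours and 22.5% in WT tumours. A bulk library cannot show whether the marks at one position sit in the same cells, on the same allele or in different cells of the tumour.

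H3K27me3 islands were absent from the locus in almost all neurosphere lists. The window held no island in any of the 3 K27M and 3 WT hindbrain libraries, nor in forebrain libraries 1 and 3. Forebrain K27M library 2 held 1 island, chr16:91223201-91233200, of 10.0 kb with 144 reads, or 3.81 per 100000 autosomal island reads. At 14.4 reads per kb it was 0.162 times as dense as the autosomal islands of its library. It overlapped 79.5% of the first broad H3K4me3 region of the tumours. A list holds only islands past the caller's threshold, and the sparsest island in these lists held 14 to 32 reads, so an uncalled level at the locus is not shown by them.

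Neither neurosphere comparison passed a test. Forebrain minus hindbrain covered length in K27M libraries was 3.33 kb with a standard error of 3.33 kb, and hindbrain K27M minus WT was 0 kb. The exact permutation p, two-sided, was 1 for each, and 3 against 3 libraries cannot go below 0.1. With every hindbrain library at 0, the second comparison holds no information on a difference. No WT forebrain list was analysed here. Autosomal islands covered 37.3 to 45.6 Mb in hindbrain K27M libraries, 144.9 to 190.6 Mb in hindbrain WT libraries and 39.8 to 42.5 Mb in forebrain K27M libraries. The part of this difference in the absence of islands at the locus was not tested.

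The absence in hindbrain neurospheres was uncommon among stretches marked in tumours. Of 3049 autosomal tiles of this length with an island in all 11 tumours, 3.94% had none in the 6 hindbrain libraries, as here. None in any of the 9 neurosphere libraries was found for 3.84%, which the locus did not match because of its forebrain island. Of all autosomal tiles, 18.9% to 22.5% held an island in each hindbrain K27M list and 35.6% to 41.5% in each hindbrain WT list. The nearest island before the window lay 39.8 to 48.4 kb away in hindbrain WT libraries, 102 to 2860 kb away in hindbrain K27M libraries and 47.4 to 3347 kb away in forebrain libraries. In tumours the nearest lay 5.20 to 32.2 kb before the window in K27M and 8.40 to 30.8 kb before it in WT. After the window it lay 2.20 to 20.2 kb away in K27M tumours, 4.40 to 67.0 kb away in WT tumours and 33.2 to 1090 kb away in neurospheres.

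**Figure D5:**
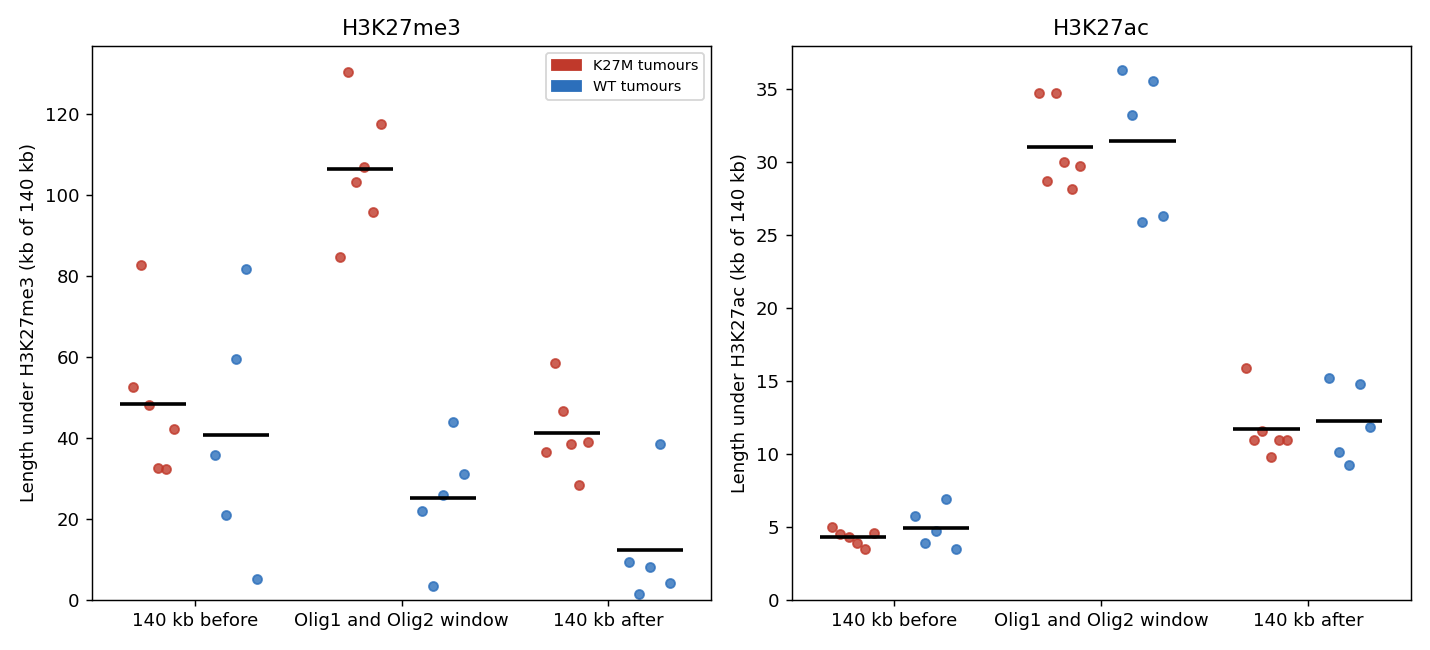
The length under H3K27me3 islands (left) and H3K27ac peaks (right) in kb for the window and for the 140 kb before and after it, by tumour (points: tumours, line: group mean). For H3K27me3 length the genotypes overlap before the window and, through 1 WT tumour at 38.4 kb, after it, and not within it, and for H3K27ac they overlap in all 3 stretches.

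The flanks were added after the window's values were seen. In the 140 kb before the window, islands covered 48.4 kb ± 18.7 (SD, n = 6) in K27M tumours and 40.6 kb ± 30.5 (SD, n = 5) in WT tumours, with overlapping ranges. In the 140 kb after it, they covered 41.3 kb ± 10.3 (SD, n = 6) and 12.2 kb ± 15.0 (SD, n = 5). The K27M tumours there ranged from 28.4 to 58.6 kb and the WT tumours from 1.40 to 38.4 kb, so the genotypes overlapped, through WT tumour 10 alone, and the 4 other WT tumours lay at 1.40 to 9.20 kb. As a share of autosomal island reads, the stretch after the window held 12.9 to 26.2 per 100000 in K27M tumours and 0.774 to 10.0 in WT tumours, with no overlap. It adjoins a window chosen on the same contrast. Of 12049 autosomal tiles of this length with an island in some tumour, 2.90% had every K27M tumour above every WT tumour in this share. Before the window the shares overlapped, at 15.8 to 32.9 and 6.17 to 27.4 per 100000. H3K27ac covered 4.28 kb before the window on average in K27M tumours and 4.94 kb in WT tumours, and 11.7 and 12.2 kb after it.

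Across the 11 tumours, 5 other H3K27me3 regions followed the pattern of the main locus region most closely. The main region was chr16:91156001-91248600, islands of all tumours being merged where they touched, and likeness was Pearson's r of log2 CPM (the region's reads scaled to a fixed total of island reads) over the 11 tumours, among 3027 autosomal regions with an island in every tumour. The 5 were chr3:87991001-88064000 (r = 0.972), chr7:86627801-86795000 (r = 0.966), chr2:61639001-61676000 (r = 0.958), chr1:123065201-123094400 (r = 0.949) and chr2:164914401-165105400 (r = 0.946). The tumours share their library and depth across regions, and the genotype difference enters every r. Within the 6 K27M tumours alone, r was -0.22, 0.45, 0.82, 0.83 and -0.31 for the 5 in that order. Within the 5 WT tumours alone, r was 0.98, 0.93, 0.98, 0.94 and 0.95. These values describe few tumours each.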

How the data were processed

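Chromatin immunoprecipitation sequencing lists of 36 of 59 samples were used, and the 23 input samples were not analysed. Positions are in mm9, the build named in the submitters' processing notes, which list, without saying what each did, SICER 1.1, MACS2, bedtools 2.25.0, BWA 0.7.12, R 2.14.0, SAMtools and Picard. The deposited island lists give a read count per island, called in windows of 200 bp joined over gaps of 600 bp, per the file names. For each peak the deposited lists give a −log10 q-value (at least 2.00), a −log10 p-value, the fold enrichment as a ratio and a score.

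Intervals were clipped to the window. Reads of an island that crossed its edge were prorated by length, and shares were taken of autosomal island reads. Peaks or islands of several libraries were merged where they shared 1 bp. Comparisons used two-sided exact permutation tests over libraries with Benjamini-Hochberg adjustment over 5, at a threshold of 0.05, in Python 3.11.15 with numpy 2.4.6, pandas 2.3.3 and SciPy 1.17.1. The procedure was tested on simulated data. Depth is known only as reads in islands, 3208588 to 16323822 per library. No 2 lists shared more than 0.0513% identical islands and read counts.

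The members, segments, flanks and comparisons were chosen with earlier results of these data known. The text names the window, each peak region called in every tumour of its mark, and the 5 regions most like the locus, which were to be taken over all 20 libraries but were taken over the 11 tumours, since most neurospheres had no island here. A planned count model of neurosphere reads could not be fitted at the locus, because no region there was called in all libraries compared. Experiment numbers in the labels are shared across the neurosphere groups and pair their libraries, so a test with that pairing was an alternative. Oligodendrocyte lineage genes could not be placed on mm9.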

Additional observations from a re-analysis of the deposited data

Results flagged for a closer look

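Of 18 sets examined for a value far from the others, 2 held one. Each set was 1 measure in the 6 K27M or the 5 WT tumours. Chance gives about 1 in 20 for a single set, but these sets share tumours and related measures and are not independent. The density of the locus islands relative to all autosomal islands was 1.62 in K27M tumour 2 and 0.983 to 1.15 in the 5 other K27M tumours. The share of H3K27ac length that lay under H3K27me3 islands was 0% in WT tumour 8 and 50.1% to 59.6% in the 4 other WT tumours. WT tumour 8 also had the shortest island length at the locus, 3.4 kb, with 33.2 kb under H3K27ac peaks.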

How the results depend on the processing

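Of 86 alternatives, 25 belong to comparisons too small to pass the threshold (H3K4me3 and the neurospheres) and say nothing of stability. Of the 61 others, 54 neither reversed a difference, nor crossed the threshold, nor moved an untested value by more than 1 SD. Most of the 61 vary the H3K27me3 contrast that chose the window or the peak share inside its islands. Their agreement is therefore no independent support for those differences. The alternatives that left out each tumour from the share of peak length inside islands were chosen after seeing the data. The H3K27ac difference in covered length ranged from -1.84 to 0.757 kb with 1 tumour left out, and its sign changed in 4 of 11 cases (0.0038 kb without K27M tumour 2, 0.118 kb without tumour 5, 0.757 kb without WT tumour 7 and 0.573 kb without WT tumour 10), none past the threshold. The H3K27me3 share of autosomal island reads differed by 73.2 per 100000 in all tumours and by 106 in females alone, among them K27M tumour 5. The share of peaks with at least 50% of their length inside an island differed by 65.9 percentage points for H3K27ac, against 45.0 by length, and by 25.0 for H3K4me3, against 12.1; the cause of these 3 shifts was not tested. Without WT tumour 8 the H3K27ac difference by length was 33.7 points. The genotypes did not overlap in H3K27me3 under whole islands, equal numbers of islands or either denominator.

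With the experiment number as a block, forebrain minus hindbrain stayed at 3.33 kb (exact p = 1) and hindbrain K27M minus WT at 0 kb. No call was possible with or without the pairing, so these values say nothing about it. Without experiment 2, forebrain minus hindbrain was 0 kb, and without experiment 1 or 3 it was 5.00 kb. The planned fits of the count model could not be run at the locus. Lists of called islands and peaks limit all values here: nothing is known below the callers' thresholds, and larger lists may call more.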

Other observations

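The number of islands at the locus overlapped between the genotypes, unlike their covered length, and was not tested. K27M tumours 1 to 6 had 5, 4, 10, 7, 8 and 5 islands, and WT tumours 7 to 11 had 3, 1, 4, 5 and 7. K27M tumour 2, with the longest covered length, had the fewest islands of its group.

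H3K27ac at the locus was split into 21 to 27 peaks in K27M tumours and 14 to 23 in WT tumours, and the widest single peak was 4.77 to 9.40 kb in K27M tumours and 7.89 to 14.3 kb in WT tumours. The ranges overlapped in both measures, which were examined after the data were seen and were not tested.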
